A study of Homo sapiens with 6 samples.

Results

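The T cell receptor and the molecules that carry its first signals were followed here through 10 genes: CD3D, CD3E, CD3G, CD247, CD2, CD6, CD28, ZAP70, LCK and LAT. They were picked by gene symbol, and all 10 had probes in the table, 32 of 15246 probes in all. After probes of a gene were averaged all 10 had a value on each of the 6 arrays, and so stand among the 3932 named genes tested, which with 3335 unnamed probes made up 7267 features. Each array was a 2-colour array that set RNA of Jurkat cells given siRNA against RPS3 or p65 beside RNA of Jurkat cells given nonspecific control siRNA. Jurkat is an established line from a human T cell leukaemia. RPS3 is a protein of the small ribosomal subunit and p65, encoded by RELA, is a subunit of the transcription factor NF-kB. The siRNA sample was labelled with Cy5 and the control with Cy3, and both had received anti-CD3/CD28 (1 ug) for the same time. There were 3 arrays for RPS3 siRNA and 3 for p65 siRNA, 1 each at 1, 3 and 6 h, with no unstimulated sample and no dye swap among them. All results therefore describe stimulated cells of 1 line, and the labels do not say whether samples came from separate cultures or whether the control sample of a time point was the same on both of its arrays.

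The T cell receptor binds its ligand through variable chains that have almost no cytoplasmic part. Signals leave the receptor through the associated CD3 chains (CD3D, CD3E, CD3G) and the zeta chain (CD247), whose cytoplasmic tyrosine motifs are phosphorylated by the kinase LCK. The kinase ZAP70 docks on these motifs and phosphorylates the membrane adaptor LAT, which gathers the enzymes of calcium, Ras and NF-kB signalling. CD28 gives the co-stimulatory signal, CD2 is an adhesion receptor for CD58, and CD6 is a scavenger receptor family protein that binds ALCAM. The stimulating antibodies are directed at the CD3 complex and CD28, which are themselves among the genes followed.

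Values are log2 ratios of the siRNA sample over its control, with each array centred on its median, so they show relative change and carry no level of a transcript. Whether a transcript was abundant or near absent in these cells could not be read from them. The direction is likely rather than settled, as the table does not state it: it rests on the dyes and on the RPS3 probe. That probe read -2.50, -2.53 and -1.44 at 1, 3 and 6 h with RPS3 siRNA, against 0.11, 0.006 and 1.11 with p65 siRNA. RELA averaged over its probes read -0.39, -0.69 and -0.54 with RPS3 siRNA, against -0.41, -0.46 and -0.59 with p65 siRNA. With p65 siRNA it was thus slightly lower at 1 and 6 h and higher at 3 h, and its 2 probes disagreed, one lying between -1.28 and -0.71 and the other between -0.40 and 0.50 over the 6 arrays. The base of the logarithm was also not given in the sources used here, and a natural log would make every size 1.44 times larger on the log2 scale. The arrays differed in quality: blank cells made up 5.40% to 10.1% of the 4 earlier arrays, but 15.1% and 14.8% of the 6 h arrays with RPS3 and p65 siRNA. Experiment IDs of the mAdb database in the labels form 2 series of consecutive numbers, and the labels do not say what a series stands for. ID series 1 held the RPS3 siRNA 3 h and p65 siRNA 1 h arrays, and ID series 2 the other 4, among them both 6 h arrays. The SD of the values was 0.26 and 0.29 on the ID series 1 arrays, against 0.37 to 0.51 in ID series 2. Centring on the median leaves such a difference in spread in place.

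Promoter sequences are shown for the members that had exactly 1 start in the RefSeq table, to set genes with a high ratio at 6 h (CD247 and CD28) beside genes without one (CD3D and CD2). Each is the 250 bases before the start of the gene in build GRCh38.p14, written 5′ to 3′ along the gene's own strand, with capitals marking the E-box letters CANNTG:
CD247, chr1:167518530-167518779, strand -: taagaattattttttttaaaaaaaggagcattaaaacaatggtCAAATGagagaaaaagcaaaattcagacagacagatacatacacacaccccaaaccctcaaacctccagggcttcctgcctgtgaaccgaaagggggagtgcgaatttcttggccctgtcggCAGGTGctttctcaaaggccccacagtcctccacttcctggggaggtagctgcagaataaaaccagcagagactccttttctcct
CD28, chr2:203706389-203706638, strand +: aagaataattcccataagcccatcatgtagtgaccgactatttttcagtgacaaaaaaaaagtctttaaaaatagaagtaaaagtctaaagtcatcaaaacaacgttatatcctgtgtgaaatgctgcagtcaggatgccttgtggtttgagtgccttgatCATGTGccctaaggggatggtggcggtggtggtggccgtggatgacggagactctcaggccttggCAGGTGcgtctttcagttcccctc
CD3D, chr11:118342706-118342955, strand -: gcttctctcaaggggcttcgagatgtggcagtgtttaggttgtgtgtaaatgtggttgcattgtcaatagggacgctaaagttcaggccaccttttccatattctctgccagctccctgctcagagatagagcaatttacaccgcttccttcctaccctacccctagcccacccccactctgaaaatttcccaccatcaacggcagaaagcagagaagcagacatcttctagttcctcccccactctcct
CD2, chr1:116754180-116754429, strand +: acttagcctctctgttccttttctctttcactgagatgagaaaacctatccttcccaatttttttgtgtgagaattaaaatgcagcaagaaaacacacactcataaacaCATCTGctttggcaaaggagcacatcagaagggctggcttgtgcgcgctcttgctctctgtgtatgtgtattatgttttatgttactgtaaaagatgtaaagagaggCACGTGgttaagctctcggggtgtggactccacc
E-boxes are bound by basic helix-loop-helix factors, among them the E proteins of T cell development. CD247, CD28 and CD2 each held 2 such letter runs and CD3D none. Windows were at hand for 7 members, 11 in all, and 7 of these windows held CANNTG, against 61.8% of all 35116 promoter windows of the same length. Both strands were searched for this and for 3 other motifs. The AP-1 letters TGANTCA stood in 1 of the 11 windows, at a LAT start, against 6.57% of all windows. The RUNX letters TGTGGT stood in 3 (LCK, CD28 and CD3D), against 11% of all windows. The NF-kB motif stood in 1, the upstream LCK start, against 9.96% of all windows. These are letter matches and no evidence of binding.

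Most members had their highest ratios at 6 h with both siRNAs. Across the 10 genes the median ratio was -0.08, 0.0018 and 0.63 at 1, 3 and 6 h with RPS3 siRNA. With p65 siRNA it was -0.02, -0.13 and 0.32 at the same times. The median of all tested features stayed between -0.011 and 0.021 on every array. On each 6 h array 9 of 10 members lay above 0, against 3 to 5 members on each earlier array.

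**Figure D1:**
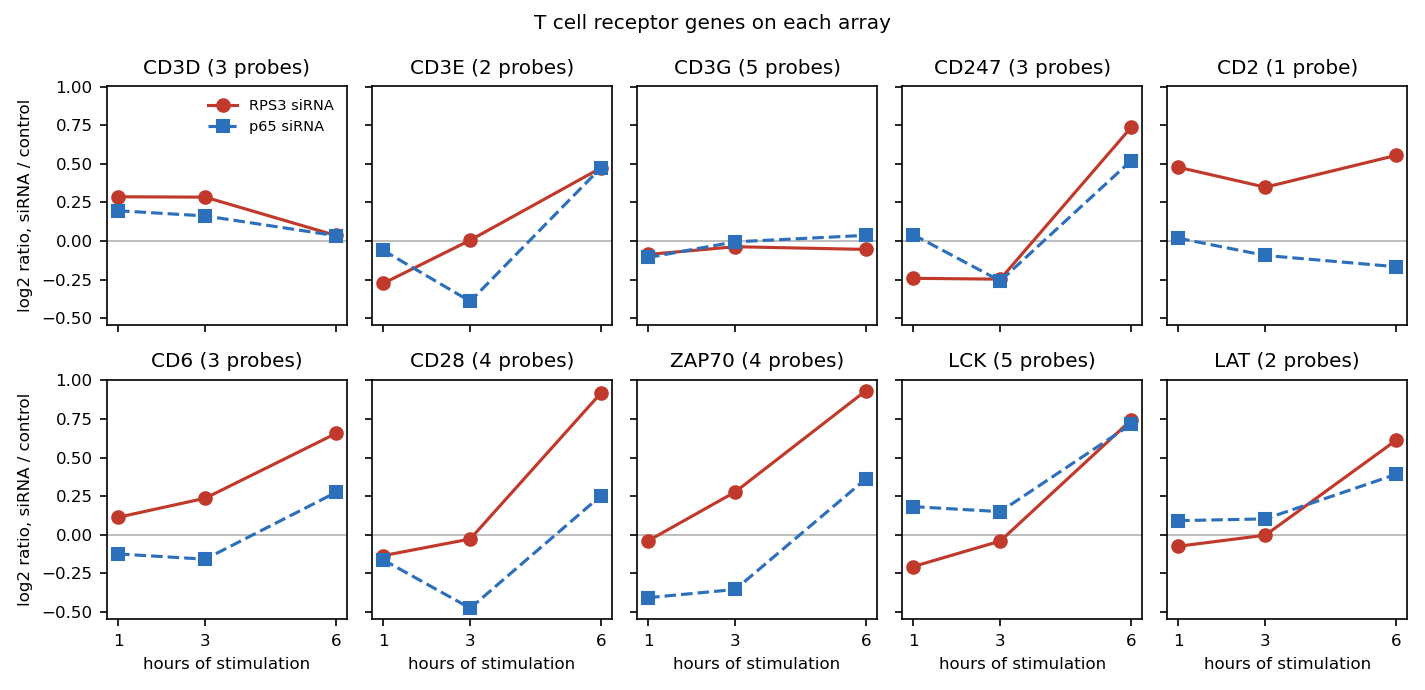
Log2 ratio of siRNA over control (y axis) by hours of stimulation (x axis) for each of the 10 genes, 1 point per array, with RPS3 siRNA as red circles and p65 siRNA as blue squares. In 7 panels both 6 h points lie above all 4 earlier points, CD2 separates by siRNA at every time, and CD3G stays near 0.

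Among the receptor chains, CD247 and CD3E were high at 6 h and CD3D and CD3G were not. CD247, the zeta chain, read -0.24, -0.25 and 0.74 at 1, 3 and 6 h with RPS3 siRNA and 0.04, -0.26 and 0.52 with p65 siRNA. Both 6 h arrays stood above all earlier ones, with a mean of 0.63 ± 0.15 (SD, n = 2) against -0.18 ± 0.15 (SD, n = 4). CD3E, the CD3 epsilon chain, read -0.27, 0.006 and 0.47 with RPS3 siRNA and -0.06, -0.39 and 0.48 with p65 siRNA. Its groups did not overlap either: the 6 h arrays averaged 0.47 and the earlier ones -0.18 ± 0.18 (SD, n = 4).

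CD3D, the CD3 delta chain, had its lowest values at 6 h. It read 0.29, 0.28 and 0.036 with RPS3 siRNA and 0.20, 0.16 and 0.035 with p65 siRNA, so that both 6 h arrays lay below all 4 earlier ones, and it was the only member above 0 on all 6 arrays (4.35% of all features were). CD3G, the CD3 gamma chain, read -0.09, -0.04 and -0.05 with RPS3 siRNA and -0.11, -0.0048 and 0.04 with p65 siRNA, and its 6 values overlapped between times and siRNAs. CD3E, CD3D and CD3G are consecutive genes on chromosome 11 in the RefSeq annotation, yet their 6 h minus earlier differences were 0.65, -0.20 and 0.05 (95% intervals 0.29 to 1.02, -0.48 to 0.09 and -0.24 to 0.34). The difference between these genes was not itself tested.

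Both kinases, and LAT below them, had their highest ratios at 6 h. ZAP70 read -0.04, 0.28 and 0.93 at 1, 3 and 6 h with RPS3 siRNA and -0.41, -0.35 and 0.36 with p65 siRNA. Its 6 h arrays averaged 0.65 ± 0.40 (SD, n = 2) and its earlier arrays -0.13 ± 0.32 (SD, n = 4), and at each time RPS3 siRNA gave the higher value. LCK read -0.21, -0.04 and 0.74 with RPS3 siRNA and 0.18, 0.15 and 0.72 with p65 siRNA. Both 6 h values were close together, at a mean of 0.73 ± 0.02 (SD, n = 2), against 0.02 ± 0.18 (SD, n = 4) on the earlier arrays. LAT, their shared downstream adaptor, read -0.07, -0.0025 and 0.61 with RPS3 siRNA and 0.09, 0.10 and 0.39 with p65 siRNA, again with both 6 h arrays on top.

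Of the surface receptors, CD28 and CD6 were high at 6 h and CD2 was not. CD28 read -0.14, -0.03 and 0.92 with RPS3 siRNA and -0.16, -0.48 and 0.25 with p65 siRNA. The 6 h arrays lay above the others, though far apart, at 0.59 ± 0.47 (SD, n = 2) against -0.20 ± 0.19 (SD, n = 4). CD6 read 0.11, 0.24 and 0.66 with RPS3 siRNA and -0.12, -0.16 and 0.27 with p65 siRNA. For CD6 the p65 siRNA value at 6 h was only just above the RPS3 siRNA value at 3 h. CD2 read 0.48, 0.35 and 0.555 with RPS3 siRNA and 0.02, -0.09 and -0.17 with p65 siRNA. CD2 therefore separated by siRNA and not by time, and its 6 h minus earlier difference was 0.0061 (95% interval -0.31 to 0.32).

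The time pattern was tested as the slope of the ratio per hour, with both siRNAs in the limma fit, and 0 of 7267 features passed an adjusted p of 0.05 (0%, lowest adjusted p = 0.0866). Slopes of the 10 members had a median of 0.12 per hour, and 8 of 10 were positive, against a median of -0.0037 and 47.9% positive over all features. ZAP70 had the steepest, 0.18 per hour (95% interval 0.10 to 0.26, adjusted p = 0.0884). At an unadjusted p under 0.05 stood 7 members, all positive, against 1032 features with a positive slope (14.2%) and 1700 in either direction (23.4%).

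A contrast for a step at 6 h was added after these values had been seen. It compared both 6 h arrays with the 4 earlier arrays with the siRNA in the limma fit, and by it 5 members rose: CD247 by 0.80 or 1.75-fold (95% interval 0.45 to 1.16, adjusted p = 0.0227), CD28 by 0.79 (0.41 to 1.17, adjusted p = 0.0294), ZAP70 by 0.78 (0.45 to 1.11, adjusted p = 0.0195), LCK by 0.71 (0.38 to 1.03, adjusted p = 0.0253) and CD3E by 0.65 (0.29 to 1.02, adjusted p = 0.0426). The background was 606 of 7267 features higher (8.34%) and 140 lower (1.93%), or 10.3% in either direction. LAT at 0.47 (0.15 to 0.80, adjusted p = 0.0698) and CD6 at 0.45 (0.16 to 0.74, adjusted p = 0.0615) did not pass, nor did CD3D at -0.20 (adjusted p = 0.315). In 7 of 10 members both 6 h arrays lay above all 4 earlier arrays, against 22.4% of all features, and in 1, CD3D, below them, against 19.1%. The members' median difference was 0.56, against -0.016 over all features.

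**Figure D2:**
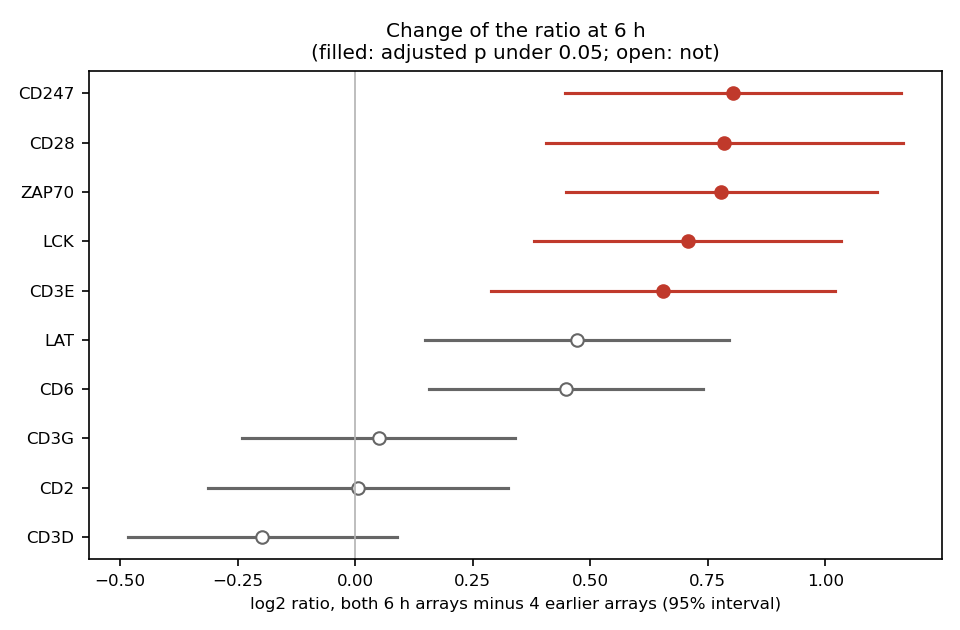
Difference of log2 ratios between both 6 h arrays and the 4 earlier arrays (x axis) for each gene (y axis), with 95% intervals from the limma fit. Filled red points mark the 5 genes with an adjusted p under 0.05, from CD247 at 0.80 to CD3E at 0.65, and open grey points the others.

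These calls rest on both 6 h arrays and moved with single earlier ones. Without the RPS3 siRNA 1 h or 3 h array 1 member passed, and without the p65 siRNA 3 h array 3. Without the p65 siRNA 1 h array 5 passed, as in the full fit. Calls over all features moved too with 1 array left out, as given at the end, so these counts are no trait of the members alone. Leaving out a 6 h array leaves 1 at that time, so only sizes are given. With any 1 array left out the members' median difference ran from 0.48 to 0.63. With quantile normalization 2 passed (CD247 and CD28), among 462 features, and with a block for time 1 (ZAP70), among 302. For the 7 genes with high 6 h arrays the difference ran from 0.29 to 1.00 under the 13 alternatives run. With 1 array left out its sign was fixed, since these genes were singled out for 6 h arrays above all earlier ones. Within ID series 2 the change to 6 h was 0.54 to 1.05 for these 7 genes with RPS3 siRNA (6 h minus 1 h). With p65 siRNA (6 h minus 3 h) it was 0.29 to 0.87, and the sign was again fixed by how they were singled out. The same changes with RPS3 and p65 siRNA were -0.25 and -0.13 for CD3D, 0.03 and 0.04 for CD3G, and 0.08 and -0.07 for CD2. With ID series as a covariate CD6 passed too (adjusted p = 0.0396 by limma), among 1487 features against 746 without it. A ratio does not tell whether the siRNA sample or the 6 h control sample changed between times, and the part of the higher share of blank cells at 6 h was not tested. The 6 h arrays correlated with each other at r = 0.69, against -0.22 to 0.47 for the other pairs of arrays. The fit counts them as independent, and the labels do not say whether they shared a control sample. In bulk RNA a change in the number of cells and in RNA per cell cannot be told apart.

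In the 7 genes with high 6 h arrays the step at 6 h was positive with both siRNAs, which singling them out by those arrays fixed. It was larger with RPS3 siRNA in 6 of these 7, and the share of all features with a larger step there was not counted. All values of the RPS3 siRNA 6 h array were also more spread, with an SD of 0.47 against 0.37 on the p65 siRNA 6 h array. The part of this spread in the size of the steps was not tested. For ZAP70 the 6 h ratio exceeded the mean of 1 and 3 h by 0.81 with RPS3 siRNA and 0.74 with p65 siRNA. For CD28 the step was 1.00 with RPS3 siRNA and 0.57 with p65 siRNA, and for CD3E it was 0.61 with RPS3 siRNA and 0.70 with p65 siRNA. With 1 array at 6 h per siRNA, these differences in step were not tested.

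Probes of a gene were also read singly. Of the 32 probes 5 had a blank on some array, which leaves 27, and in 15 of these both 6 h arrays lay above all 4 earlier ones, against 22.8% of all probes. All 5 LCK probes did so, with differences of 0.45 to 1.23, as did both probes of CD3E (0.48 and 0.82) and both of LAT (0.47 each). So did 2 of 3 complete probes of ZAP70, 2 of 3 of CD28, the 1 complete probe of CD247, but only 1 of 3 of CD6. None of the 5 CD3G probes and neither complete CD3D probe did. CD28 was the least uniform. Its probe with the strongest step read -0.17, -0.13 and 1.81 with RPS3 siRNA and -0.22, -0.14 and 0.90 with p65 siRNA. The probe with the weakest read -0.05, 0.03 and 0.13 with RPS3 siRNA and -0.01, -0.66 and -0.25 with p65 siRNA, a 6 h minus earlier difference of only 0.11. Tested 1 probe at a time, 8 of the 27 rose at 6 h by limma at an adjusted p under 0.05 (3 of LCK, 2 of ZAP70 and 1 each of CD247, CD28 and CD3E), against 9.92% of all probes. Several member probes have close numbers, so a shared place in the spotting order was looked at. Among probes of other genes within 25 numbers of a member probe, the median 6 h minus earlier difference ran from -0.34 to 0.33 with a median of 0.04, against -0.03 over all probes. It was lowest near a ZAP70 probe whose own difference was 0.65, and highest near a CD247 probe whose own difference, over the 5 arrays that measured it, was 0.79. Near the probes of CD247 it was 0.33, 0.29 and -0.06, and near those of CD6 -0.01, 0.12 and 0.19. Near CD28 probes it was 0.04, 0.18, 0.16 and 0.20, and near ZAP70 probes 0.03, 0.15, -0.34 and 0.22. Near the CD3E, LCK and LAT probes it ran from -0.21 to 0.09. The part of spotting order in the 6 h differences was not tested.

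**Figure D3:**
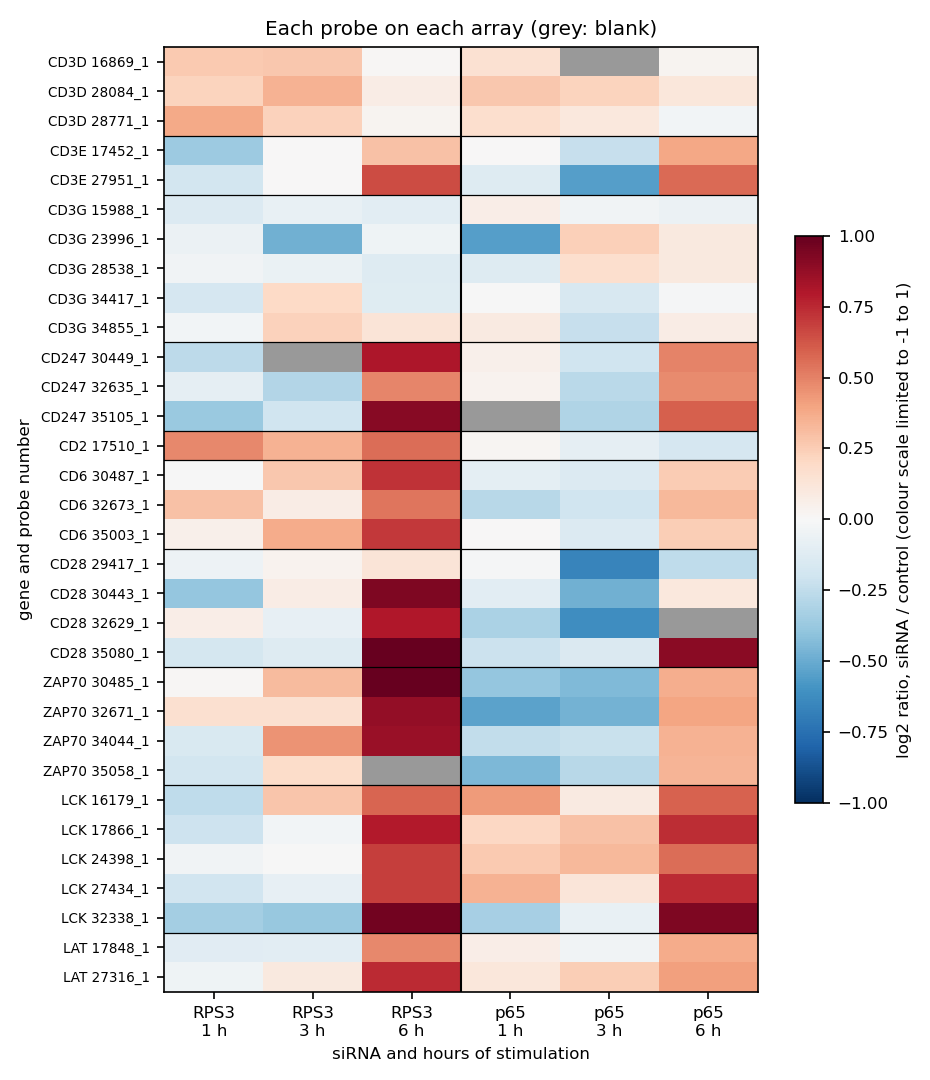
Log2 ratio of siRNA over control (colour, limited to -1 to 1) for each of the 32 probes (rows, by gene and probe number) on each array (columns, RPS3 siRNA left and p65 siRNA right, by hours of stimulation), with blanks in grey. The LCK, LAT, CD3E, CD247 and ZAP70 rows are red at 6 h with both siRNAs wherever measured, and the CD3D and CD3G rows are pale there.

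The second question was whether members differed from control with RPS3 knockdown. By limma on the mean of the 3 RPS3 siRNA arrays 0 members and 0 of 7267 features passed (0%, lowest adjusted p = 0.0880). CD2 averaged 0.46 ± 0.10 (SD, n = 3) and lay above 0 on all 3 arrays, with a 95% interval of 0.22 to 0.70, an unadjusted p of 0.00233 and an adjusted p of 0.349. CD6 averaged 0.34 ± 0.28 (SD, n = 3), also above 0 on all 3 arrays, with an unadjusted p of 0.0490 and an adjusted p of 0.565. CD3D, at 0.20 ± 0.14 (SD, n = 3), was the other member with 3 positive arrays, while ZAP70 averaged 0.39 ± 0.50 (SD, n = 3). Being above 0 on all 3 RPS3 siRNA arrays held for 16.2% of all features, and 636 features (8.75%) had an unadjusted p under 0.05, 290 of them (3.99%) with a positive mean, as CD2 and CD6 had. The means of 9 of 10 members were positive, against 52.9% of all features. The members' median was 0.19, against 0.01 over all features. This median rested on the 6 h array, and was 0.33 at most with another array left out. Without the 6 h array it was -0.05, when CD3E, CD247, CD28, LCK and LAT joined CD3G in averaging below 0. CD2 averaged 0.41 to 0.52 with any 1 array left out.

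With p65 siRNA the members' median was 0.0031, against 0.02 over all features, and 5 of 10 were positive, against 54.7% of all features. By limma 0 members and 0 features passed (0%, lowest adjusted p = 0.587). Before adjustment 0 members had a limma p under 0.05, against 360 features (4.95%). LCK had the highest mean, 0.35 ± 0.32 (SD, n = 3, adjusted p = 0.935), and was above 0 at all 3 times, as were LAT at 0.20 ± 0.17 and CD3D at 0.13 ± 0.09. That sign pattern held for 13.2% of all features. ZAP70 had the lowest mean, -0.13 ± 0.43, and CD28 averaged -0.13 ± 0.37. In both, negative values at 1 and 3 h stood against a positive one at 6 h.

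The siRNAs were then set against each other, where a dye effect common to all arrays cancels. CD2 had the largest mean difference of the 10 members, with RPS3 siRNA higher than p65 siRNA by 0.46, 0.44 and 0.72 at 1, 3 and 6 h. Its mean difference was 0.54 or 1.45-fold (95% interval 0.20 to 0.88, unadjusted p = 0.00660, adjusted p = 0.9996 by limma), and it ranked 18 of 7267 features by p. CD2 was also the 1 member whose RPS3 siRNA arrays all lay above all p65 siRNA arrays, which 3.11% of all features did. It is measured by 1 probe, so no second probe could be compared. The difference was 0.33 in ID series 1 and 0.65 in ID series 2, in both of which the siRNAs differ in their times, and it ran from 0.49 to 0.60 with 1 array left out.

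ZAP70 differed by 0.37, 0.63 and 0.57 at 1, 3 and 6 h, a mean of 0.52 ± 0.14 over the times (95% interval of the fit -0.17 to 1.22). CD6 differed by 0.24, 0.39 and 0.38, a mean of 0.34 ± 0.09 (95% interval -0.13 to 0.81). Both were higher with RPS3 siRNA at every time by more than the spread of the time-matched differences, and neither passed in the fit, nor with the time point as a block (adjusted p = 0.771 for each by limma). CD28 at 0.38 (95% interval -0.34 to 1.10) and CD3D at 0.07 (-0.28 to 0.43) completed the 5 members that were higher with RPS3 siRNA at all 3 times, against 12.9% of all features. LCK had the lowest difference, -0.18 (-0.83 to 0.46), with -0.39, -0.19 and 0.03 at 1, 3 and 6 h. The intervals of CD3E (-0.57 to 0.69), CD247 (-0.74 to 0.70), LAT (-0.52 to 0.48) and CD3G (-0.36 to 0.29) include sizable differences in either direction. By limma 0 members and 0 of 7267 features passed (0%, lowest adjusted p = 0.511), while 185 features had an unadjusted p under 0.05 (2.55%), of the members CD2 alone.

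**Figure D4:**
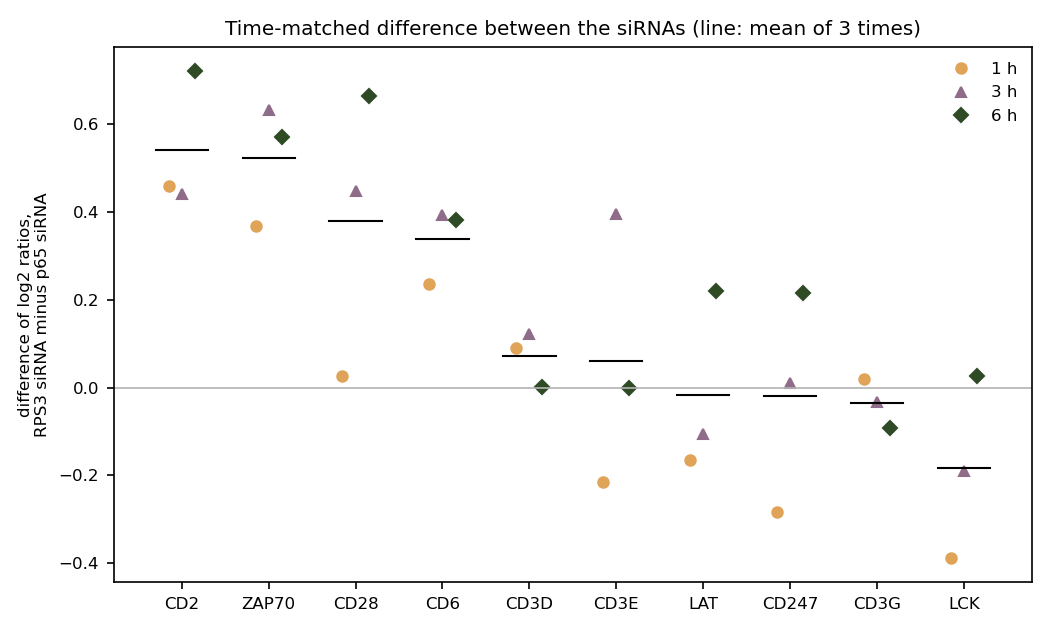
Difference of log2 ratios, RPS3 siRNA minus p65 siRNA (y axis), at 1, 3 and 6 h for each gene (x axis), with a black line at the mean of the 3 times. CD2, ZAP70, CD28, CD6 and CD3D lie above 0 at every time, at means of 0.54, 0.52, 0.38, 0.34 and 0.07, while LCK lies lowest at -0.18.

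Averaged over all 6 arrays, again 0 members and 0 features passed (0% by limma, lowest adjusted p = 0.0986), and 794 features (10.9%) had an unadjusted p under 0.05, of the members CD2 alone. LCK had the highest average, 0.26, followed by CD2 at 0.19, LAT at 0.19 and CD3D at 0.17, and CD3G the lowest, -0.04. The members' median was 0.15, against 0.02 over all features.

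Other genes of the pathway, with 175 symbols listed, 117 of them measured and 111 tested, gave calls only at 6 h, the 1 contrast in which any feature passed. Here 12 of the 111 rose at 6 h and 1 fell by limma (adjusted p under 0.05), which is close to the 8.34% and 1.93% of all features. The list's median difference was 0.09. In 37 of the 111 both 6 h arrays lay above all earlier ones and in 17 below, against 22.4% and 19.1% of all features. Those that rose included AKT1, a kinase downstream of CD28, at 1.30 (adjusted p = 0.00380), the phosphatase PTPN7 at 1.14 (0.00673), the adaptor SLA, which promotes loss of the receptor from the surface, at 0.94 (0.0129), the transmembrane adaptor SIT1 at 0.79 (0.0135) and the surface inhibitor CD5 at 0.69 (0.0240). The others were SOS2, at 2.04 on the p65 siRNA 6 h array against 0.33 on the RPS3 siRNA one, and LEF1, NF1, RASA2, HRAS, NOTCH1 and NFATC3. NCK2, an adaptor that binds CD3E, fell by 0.77 (adjusted p = 0.0410). None of the 111 passed the 5 other contrasts. With RPS3 siRNA the highest means under the rule for named genes were those of SLA (0.65), the Ras activator RASGRP1 (0.65) and the calcineurin subunit PPP3CC (0.45), and the lowest those of TNFRSF9 (-0.43), LMO2 (-0.22) and RUNX3 (-0.20). With p65 siRNA they were PLCG2 (0.25), CD4 (0.17) and CD1D (0.16), against CD2AP (-0.78), which binds the tail of CD2, ETS1 (-0.52) and PIK3R1 (-0.44). For RPS3 siRNA minus p65 siRNA they were SLA (0.66), RASGRP1 (0.65) and SKAP1 (0.49), against TNFRSF9 (-0.45), CD1A (-0.30) and LMO2 (-0.26). The slope per hour was highest for SOS2 (0.30), AKT1 (0.28) and PTPN7 (0.25), and lowest for NCK2 (-0.17), CD48 (-0.13) and CD69 (-0.12). Of 34 markers of other cell types 22 were tested, and by limma 0 passed at 6 h, against 8.34% higher and 1.93% lower over all features. With so few genes, 0 calls lies near those shares. In 1 marker both 6 h arrays lay above all earlier ones and in 3 below, against 22.4% and 19.1% of all features. The markers' median difference was -0.10. Their median ratio per array ran from -0.05 to 0.28.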

How the data were processed

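The series measured 6 2-colour arrays of stimulated Jurkat cells. The authors deposited 1 log2 ratio per probe and array, read here as log2 because no base is stated and values reach 9.52, and as Cy5 over Cy3, per the labels' dyes. Image analysis, background correction and normalization are not given in the sources used here. Array medians lay between -0.019 and 0.007, so values had been centred before. No signal over background is known, so precision is limited by how few arrays there are.

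Array medians were subtracted, then probes sharing a symbol were averaged (10169 of 15246 probes had 1 symbol, 4 several and 5073 none). The 7267 features with values on all 6 arrays, 3932 of them named, entered limma 3.58.1 (R 4.3.3), with the 3 times of a siRNA as its replicates, and p-values were adjusted by Benjamini-Hochberg over all features. In tests of a ratio against 0 the spread of control samples enters only through the ratios. A control sample shared by both arrays of a time point would make them dependent, which the fit does not allow for. P-values reflect only how these arrays vary, possibly for technical reasons. Members and lists were chosen with earlier results of these data known. Named genes were all members, and from the pathway list those that passed, or else the 3 highest and 3 lowest of 1 sign on every array (for the slope, of 1 sign of 6 h minus 1 h with both siRNAs). Alternatives are given at the end. In the fit of single probes a gene counted as passing if any of its probes did. Gene symbols came from the platform annotation, and all 10 members matched RefSeq by gene ID.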

Additional observations from a re-analysis of the deposited data

How the results depend on the processing

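Under 15 alternatives no member passed with RPS3 siRNA, with p65 siRNA or in their difference. The 6 h differences of CD3E, CD247, CD6, CD28, ZAP70, LCK and LAT ran from 0.29 to 1.00 in the 13 run for them. These genes were singled out by their high 6 h arrays, which fixed the positive sign with 1 array left out. Counts of features that passed moved as follows. Quantile normalization gave 2 for RPS3 siRNA, 1 for RPS3 siRNA minus p65 siRNA, 8 for the mean of all 6 arrays, 1 for the slope and 462 for the 6 h contrast, against 0, 0, 0, 0 and 746. Single probes gave 7 for RPS3 siRNA, 20 for the mean and 1306 for the 6 h contrast. The time point as a block gave 3 for RPS3 siRNA, 2 for the difference and 302 at 6 h, and ID series as a covariate 1487 at 6 h. Without both 6 h arrays there were 3 for RPS3 siRNA, 1 for the difference and 1 for the mean. With 1 array left out the counts ran from 0 to 2 for RPS3 siRNA, from 0 to 628 for the slope and from 17 to 772 for the 6 h contrast. The 628 arose without the p65 siRNA 1 h array, where the slopes of CD3E, CD247, CD28, ZAP70 and LCK passed. The members' median difference between the siRNAs ran from 0.0049 to 0.24. The cause of these shifts was not tested.

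No sign turned where the value or its alternative had passed. Of 39 turned signs, those with the median of a gene's probes were CD3G and CD6 with p65 siRNA (0.0093 and 0.0040) and the difference of CD247 (0.01). Quantile normalization turned the 6 h difference of CD2 (-0.13). Without both 6 h arrays CD3E and CD247 with p65 siRNA read -0.22 and -0.11, and CD3E, CD247, CD28, LCK and LAT with RPS3 siRNA -0.13, -0.24, -0.081, -0.12 and -0.038. The slopes of CD3E, CD247 and CD28 were then -0.012, -0.076 and -0.051 per hour. With 1 array left out, means with p65 siRNA ran from -0.22 to 0.21 for CD3E, -0.056 to 0.016 for CD3G, -0.11 to 0.28 for CD247, -0.14 to 0.075 for CD6, -0.32 to 0.046 for CD28 and -0.38 to 0.0041 for ZAP70. With RPS3 siRNA they ran from -0.13 to 0.24 for CD3E, -0.24 to 0.25 for CD247, -0.081 to 0.45 for CD28, -0.12 to 0.35 for LCK and -0.038 to 0.30 for LAT. The difference between the siRNAs ran from -0.14 to 0.29 for CD3E, -0.35 to 0.19 for CD247, -0.47 to 0.0018 for LCK and -0.23 to 0.11 for LAT. For CD2 the slope ran from -0.040 to 0.0092 and the 6 h difference from -0.13 to 0.14. The alternative that admits features with at least 2 values per siRNA was not run for the slope and the 6 h contrast, and no slope was fitted with the time point as a block. The labels give no replicate numbers, and the time block is the fit that matches arrays by time.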

Other observations

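The transcription factors of T cell identity, 15 tested, held no common direction at 6 h: 8 lay above 0 and 2 rose, LEF1 and NOTCH1, against 48.1% above 0 and 8.34% called higher over all features. ETS1, a factor of the T cell lineage, read -0.0095, -0.001 and -0.37 at 1, 3 and 6 h with RPS3 siRNA and -0.014, -0.785 and -0.77 with p65 siRNA. Of the 18 Ras, PKC and CARMA1 signalling genes tested, 12 lay above 0 at 6 h and 3 rose (NF1, RASA2 and HRAS). In 9 both 6 h arrays lay above all earlier ones and in 2 below, against 22.4% and 19.1% of all features. This was not particular to that list: of 19 lipid and calcium signalling genes 15 lay above 0, 2 rose and 8 had both 6 h arrays above. Among cytosolic adaptors and exchange factors 6 of 23 had both above, among co-receptors and surface partners 6 of 23, and among kinases and phosphatases 3 of 10. Over all 6 arrays the highest averages of 1 sign on the pathway list were those of PLCG2 (0.29) and CD1D (0.13), and the lowest those of ETS1 (-0.33), RUNX3 (-0.29) and FLI1 (-0.17), of which 0 passed.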
